A study of Homo sapiens with 38 samples.

Results

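The genes described here encode the collagens, the laminins, a few other matrix proteins and the integrins. A row of the count table was taken when its symbol named a collagen chain, a laminin chain, an integrin alpha chain or an integrin beta chain, or was FN1, VTN, SPARC, NID1, NID2 or HSPG2, and when it held more than 10 counts in at least 2 of the 38 libraries. Of 88 rows with such a symbol, 64 met the count rule. They were 31 of 44 collagens, 11 of 12 laminins, 12 of 18 integrin alpha chains, 5 of 8 integrin beta chains and 5 of 6 other matrix genes. Over all 57133 rows, 16486 met the same count rule. The genes were chosen by their counts in all 38 libraries, so that a gene that is silent in naive cells could enter only through a group in which it is high.

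All libraries came from Shef6, an established line of human embryonic stem cells, so the measurements cover 1 line. Naive cells were grown without feeders in PXGL, which holds inhibitors of MEK, tankyrase and PKC together with LIF, and had been adapted to a serum coating before any of these samples were taken. Capacitation, the passage of naive cells towards competence for lineage formation, was started by moving these serum-adapted cells to Geltrex, a basement membrane extract, in another medium, with a ROCK inhibitor on the first day. In the first experiment (Ex1, 30 libraries) naive cells were sampled both on serum coating and on Geltrex, cultures in N2B27 or E8 at days 2, 3, 4, 6 and 8, and those in mTeSR at days 4, 6 and 8. In the second experiment (Ex2, 8 libraries) naive cells on Geltrex were sampled beside cultures at day 4 in N2B27 alone, in N2B27 to which XAV939, a tankyrase inhibitor, had been added (XAV), and in N2B27 given FGF2 and Activin A on top of XAV939 (FAX). Each of the 19 groups held 2 libraries. The naive libraries of Ex2 are given as day 0 by their titles and as day 4 by their library names, and the day 0 of the titles was used. The library names of all naive cells read PXGLY where the titles read PXGL. The study added a ROCK inhibitor to the naive medium after each passage. It does not say whether this inhibitor was present when naive cells were sampled.

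Collagens are triple helices of 3 alpha chains. Fibrillar collagens such as types I, III, V and XI form the fibres of connective tissue, and type IV collagen forms the network of basement membranes together with laminins, nidogens and the proteoglycan perlecan, encoded by HSPG2. Laminins are assembled from 1 alpha, 1 beta and 1 gamma chain and are the matrix proteins on which epithelial cells, including the epiblast, rest. Integrins are receptors made of 1 alpha and 1 beta chain that tie this matrix to the actin cytoskeleton. ITGB1 is the beta chain shared by most receptors for laminin, collagen and fibronectin, whereas ITGB5 pairs with ITGAV in a receptor for vitronectin. Vitronectin itself (VTN) was not among the genes, as its highest count in any library was 2.

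The libraries hold 3′ tags, and a total of 3038046 to 5612354 counts was assigned to genes per library (median 4427277). The genes described here took 0.170% to 0.186% of these counts in the 6 naive libraries, 0.420% and 0.438% in N2B27 at day 8, 0.357% and 0.398% in mTeSR at day 8 and 0.289% and 0.338% in E8 at day 8. CPM here are counts relative to the size of the library, and levels always compare 1 gene between groups. Where no library of a group had more than 3 counts of a gene, the gene is said to be at the floor there, which lay between 0.520 and 1.06 CPM, and a fold against such a group is a lower bound computed against the floor. In bulk libraries fewer cells of a type and less RNA per cell cannot be told apart. The replicates are called technical in some places of the study and biological in another, so the p-values measure only the spread between these libraries. In GENCODE v44 (GRCh38) all 64 genes have 1 position each, for example COL1A2 at chr7:94394895-94431227 and ITGA1 at chr5:52787916-52959209 on the plus strand and FN1 at chr2:215360440-215436073 and LAMA1 at chr18:6941742-7117797 on the minus strand. There, 29 of the 64 genes have an exon that is overlapped by another gene, 25 of them by a gene on the opposite strand (SLC19A1 for COL18A1 and COL4A2-AS1 for COL4A2, for example). Whether the counting used the strand is not given in the sources used here, so reads of such pairs cannot be told apart.

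The type IV collagen genes lie in the genome as head-to-head pairs, and both pairs shown here rose during capacitation. The sequences between the partners are therefore shown, from RefSeq start sites (GRCh38.p14) and read 5′ to 3′, with every GGGCGG and every CCAAT, or their complements on the other strand, in capitals. COL4A1 on the minus strand and COL4A2 on the plus strand start 127 bases apart and in opposite directions, and the 126 bases between them (chr13:110307158-110307283) are given on the strand of COL4A2. COL4A5 on the plus strand and 1 of the 2 listed starts of COL4A6 on the minus strand are 380 bases apart. For these the 250 bases before each start are given on the strand of the gene, chrX:108439588-108439837 for COL4A5 and chrX:108439459-108439708 for COL4A6, of which 121 bases are shared. The other listed start of COL4A6 lies 1416 bases from that of COL4A5.
COL4A1 and COL4A2: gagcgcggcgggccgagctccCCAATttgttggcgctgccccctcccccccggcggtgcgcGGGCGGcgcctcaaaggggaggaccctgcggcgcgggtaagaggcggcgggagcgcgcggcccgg
COL4A5: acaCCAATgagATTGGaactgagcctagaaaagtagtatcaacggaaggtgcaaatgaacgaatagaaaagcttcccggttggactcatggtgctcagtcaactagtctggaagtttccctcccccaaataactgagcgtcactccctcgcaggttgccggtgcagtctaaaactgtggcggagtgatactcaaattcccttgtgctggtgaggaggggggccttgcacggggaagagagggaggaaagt
COL4A6: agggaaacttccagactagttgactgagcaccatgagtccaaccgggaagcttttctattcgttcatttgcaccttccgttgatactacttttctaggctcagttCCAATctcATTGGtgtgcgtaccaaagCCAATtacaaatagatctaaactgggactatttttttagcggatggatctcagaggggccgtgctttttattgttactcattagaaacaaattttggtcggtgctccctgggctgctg
The bases between COL4A1 and COL4A2 held 1 CCAAT and 1 GGGCGG. Those before COL4A5 and COL4A6 held 2 and 3 copies of CCAAT and no GGGCGG. The 2 copies of COL4A5 lie in the shared bases and are counted for COL4A6 as well. Windows of 250 bases before a start were listed for 47 of the 64 genes. GGGCGG stood on either strand in 35 of their 61 windows (57.4%, against 42.6% of the 35116 windows of all genes) and CCAAT in 14 (23%, against 32%). TATAAA was found in 7 (11.5%, against 10.7%) and TGANTCA in 2 (3.28%, against 6.57%). Both strands were searched for each motif, and matches of different motifs could overlap. A match of letters is no binding site.

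**Figure D1:**
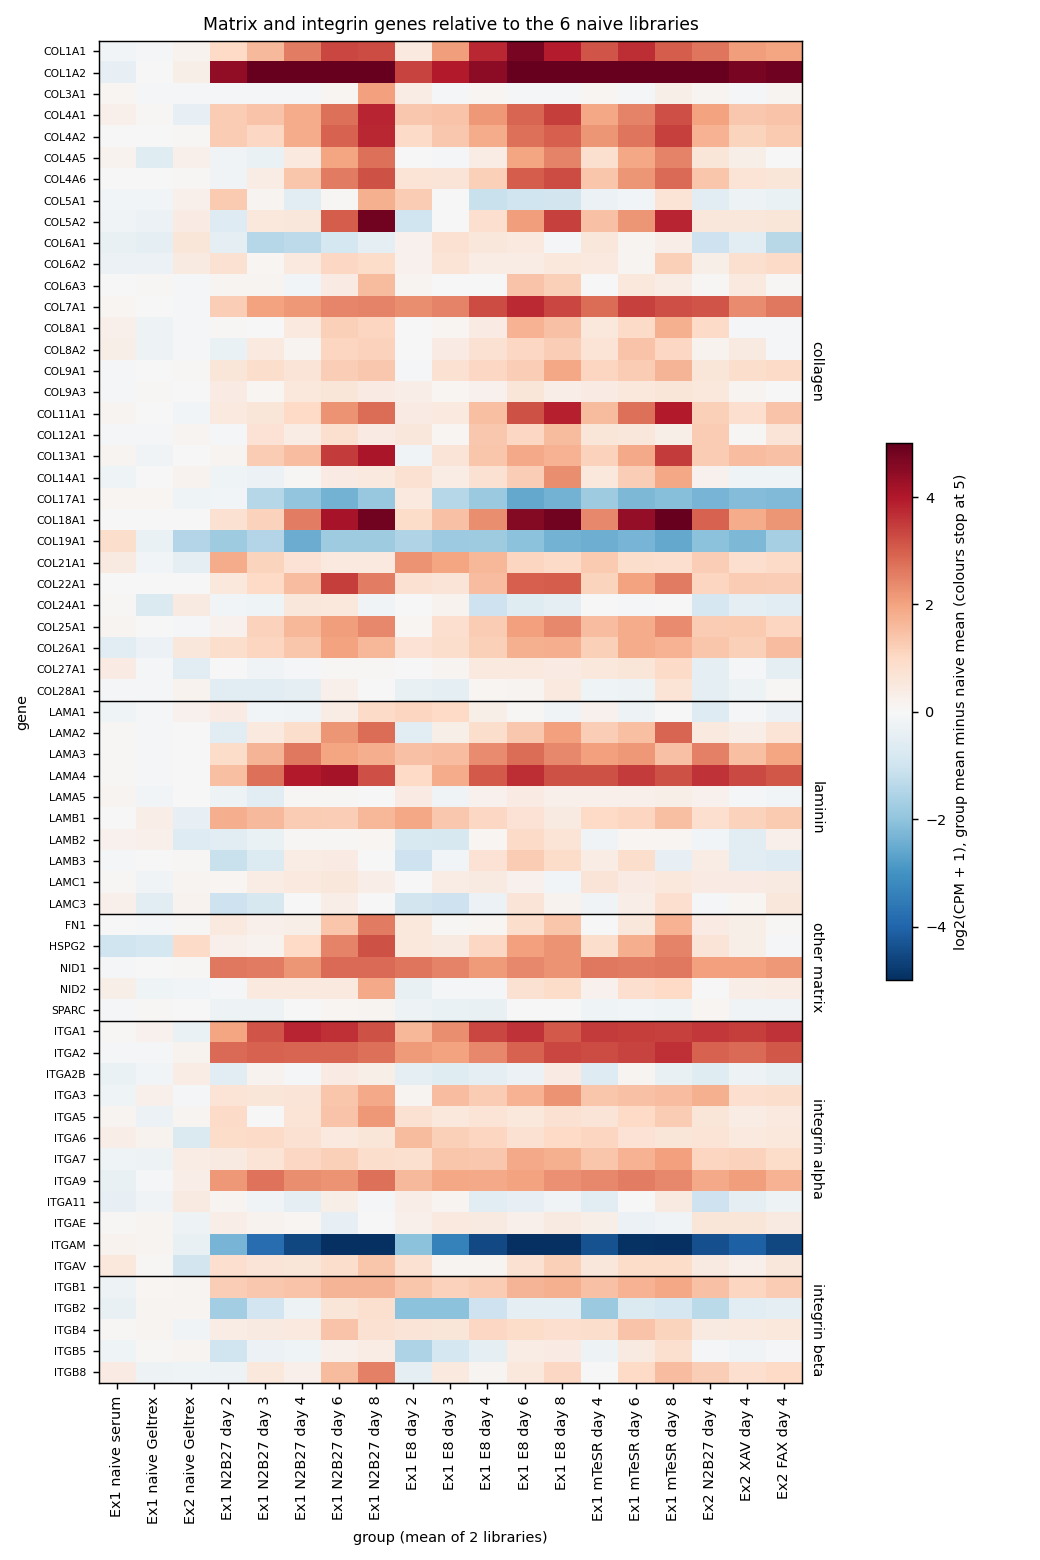
Levels of the genes in the 19 groups, with 1 gene left out, as the mean of 2 libraries on the log2(CPM + 1) scale minus the mean of the 6 naive libraries, with genes in rows by family and groups in columns. Red is higher and blue lower than naive cells, and colours stop at a difference of 5. COL1A2, COL18A1, ITGA1 and LAMA4 are red in every medium by day 4 and ITGAM is blue, while SPARC, LAMA5, LAMC1 and COL9A3 stay pale.

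The 64 genes spanned a wide range of detection. Of these genes, 22 held more than 10 counts in all 38 libraries and 12 did so in fewer than 10 libraries. In naive cells 26 passed 10 counts in all 6 libraries and 29 in none of them. Just inside the count rule were COL12A1, with 13 and 11 as its highest counts, COL28A1 (15 and 14), NID2 (19 and 18) and COL3A1 (20 and 13). Just outside were ITGAL (11 and 8), ITGAX (10 and 7) and COL4A4 (9 and 7).

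By day 8 most of the genes stood above their naive level in each medium. A gene was called when edgeR's quasi-likelihood test gave a Benjamini-Hochberg adjusted p under 0.05 over all 16674 genes tested and the log2 fold change was above 1 in size. In N2B27 at day 8, 43 of the 64 genes were called against the 6 naive libraries, 40 higher and 3 lower, where 23.9% of all genes tested were called (16.9% higher and 7.03% lower). In E8 the number was 44, 40 higher and 4 lower, against 27.5% of all genes (18.2% higher and 9.24% lower). In mTeSR it was 42, 39 higher and 3 lower, against 25.1% (16.9% higher and 8.20% lower). The median log2 fold change of the 64 genes was 2.06 in N2B27, 1.95 in E8 and 2.14 in mTeSR, or 1.71, 1.41 and 1.63 when bounds replaced the fitted values of genes that were at the floor in 1 group. Over all genes tested the medians were -0.03, 0.00 and -0.02.

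The count rule admits a silent gene only where it rises, so the naive detection of the genes stands beside these counts. Among the 26 genes above 10 counts in every naive library, 12 rose in N2B27 (46.2%), 9 in E8 (34.6%) and 11 in mTeSR (42.3%). Of all 10989 genes tested with that detection, 7.32%, 8.17% and 7.79% rose. Among the 29 genes above 10 counts in no naive library, 24, 26 and 24 rose, or 82.8%, 89.7% and 82.8%. Of all 2477 genes tested with no such naive library, 55.1%, 56.9% and 53.0% rose. These shares are descriptions and no test was made of them. In all 3 media together 34 genes rose (12% of all genes did so), 3 fell (4.2%), 16 were called in none (63.7%), 10 were called in 1 or 2 media, and COL5A1 was called in opposite directions.

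Among the 34 genes that rose in all 3 media were the fibrillar collagen genes COL1A1, COL1A2, COL5A2 and COL11A1, the type IV genes COL4A1, COL4A2, COL4A5 and COL4A6, the further collagens COL7A1, COL8A1, COL8A2, COL9A1, COL13A1, COL18A1, COL22A1, COL25A1 and COL26A1, the laminins LAMA2, LAMA3 and LAMA4, FN1, HSPG2, NID1 and NID2, and the integrins ITGA1, ITGA2, ITGA3, ITGA5, ITGA7, ITGA9, ITGB1, ITGB4 and ITGB8. The 3 that fell were COL17A1, COL19A1 and ITGAM. The 16 genes called in no medium were COL6A1, COL9A3, COL24A1, COL27A1, COL28A1, LAMA1, LAMA5, LAMB2, LAMC1, SPARC, ITGA2B, ITGA6, ITGA11, ITGAE, ITGB2 and ITGB5. Called in 1 or 2 media were COL3A1, COL6A2, COL6A3, COL12A1, COL14A1, COL21A1, LAMB1, LAMB3, LAMC3 and ITGAV.

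Both chains of type I collagen, the main fibre of connective tissue, rose in every medium. COL1A2, the second chain of type I collagen, was at 0.361 to 1.57 (median 0.904) CPM in the 6 naive libraries. It stood at 138 and 143 CPM in N2B27 at day 8, at 66.1 and 63.1 in E8 and at 114 and 128 in mTeSR. No day 8 library overlapped with a naive one, and E8 was the lowest medium. The log2 fold change against naive was 7.30 ± 0.19 (SE) in N2B27, 6.18 ± 0.20 in E8 and 7.09 ± 0.19 in mTeSR (adjusted p = 6.16e-26, 3.53e-23 and 2.03e-25).

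COL1A1, which supplies the other chain of type I collagen, had its highest day 8 level in E8. It was at 1.11 to 2.39 (median 1.22) CPM in naive cells, at 20.5 and 24.7 in N2B27, at 33.7 and 39.1 in E8 and at 17.6 and 19.9 in mTeSR. Its log2 fold changes were 3.98 ± 0.19, 4.66 ± 0.19 and 3.71 ± 0.21 (adjusted p = 3.52e-18, 8.94e-21 and 1.69e-16). COL3A1, the fibrillar collagen of soft tissues, was at 2.86 and 3.61 CPM in N2B27 at day 8. That was at least 3.16-fold higher than the naive libraries, of which 5 held no count and 1 a single count. In E8 and mTeSR at day 8 COL3A1 was at the floor.

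The chains of type V collagen, which nucleates type I fibrils, did not move together. COL5A2 was at 0.218 to 1.94 (median 1.11) CPM in naive cells and reached 62.1 and 49.5 CPM in N2B27, 21.7 and 19.1 in E8 and 29.9 and 25.2 in mTeSR, so that it rose in all media (log2 fold changes 5.84 ± 0.28, 4.39 ± 0.30 and 4.82 ± 0.30). COL5A1 was at 3.59 to 7.19 (median 5.76) CPM in naive cells. It rose in N2B27 to 24.2 and 17.0 CPM (log2 fold change 1.96 ± 0.26, adjusted p = 1.42e-07) and fell in E8 to 2.81 and 1.88 CPM (-1.13 ± 0.38, adjusted p = 0.0128). In mTeSR it stood at 8.69 and 9.79 CPM, a change that was not called (0.81 ± 0.31, adjusted p = 0.0300). The fall in E8 was lost without replicate 2 of E8 at day 8 (log2 fold change -0.90, adjusted p = 0.131), whereas the rise in N2B27 was called without any single library. COL11A1, which forms heterotypic fibrils with type II and type V chains, was at the floor in naive cells and at least 6.63-fold higher in N2B27, 14.9-fold in E8 and 15.7-fold in mTeSR.

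**Figure D2:**
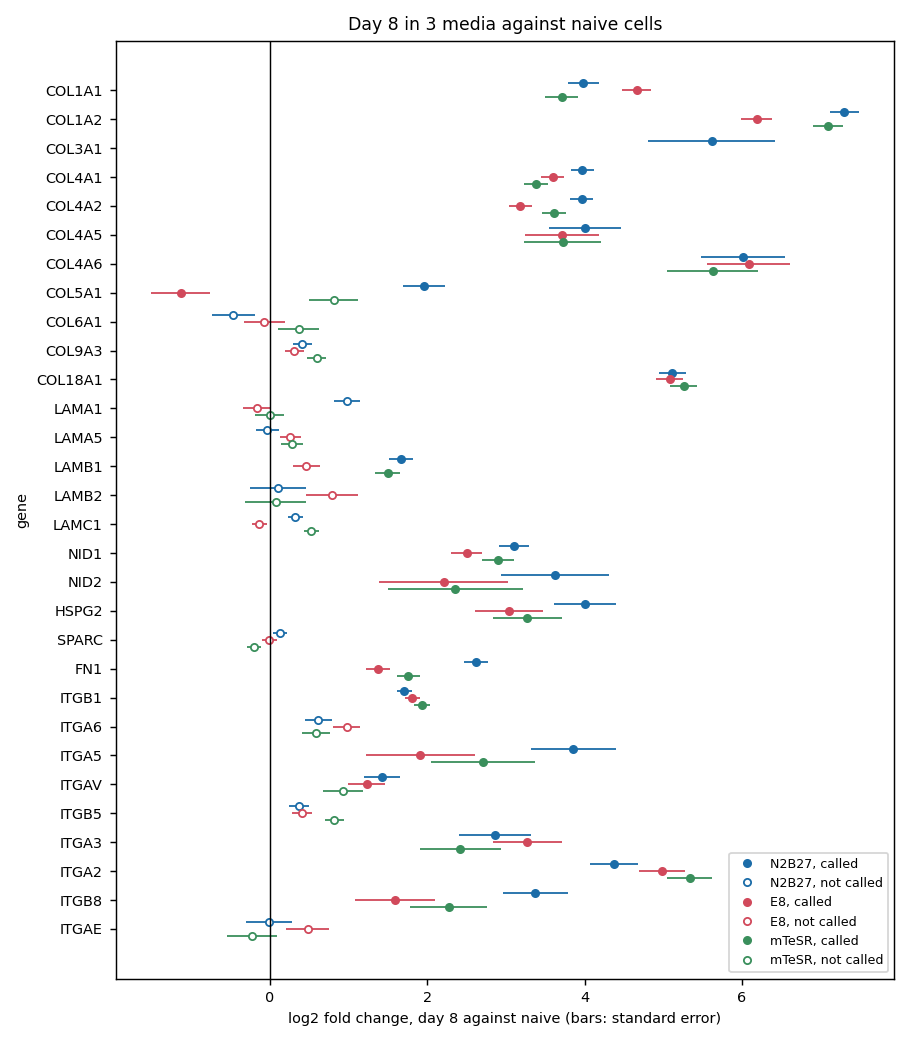
Log2 fold changes at day 8 against the 6 naive libraries in N2B27, E8 and mTeSR for the named genes, with filled points for called genes, open points for others and bars of 1 standard error. Points are left out where both groups are at the floor, and fitted values against a naive level at the floor (COL3A1, COL4A6, ITGA2 and ITGA5) depend on the prior count. COL1A2 lies near 7 in N2B27 and mTeSR, COL18A1 near 5 in all media, and SPARC, LAMA5 and ITGAE near 0.

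Basement membrane collagens rose in every medium. COL4A1, the first chain of the common type IV network, was at 4.10 to 9.08 (median 6.30) CPM in naive cells and at 102 and 105 CPM in N2B27, 78.9 and 81.0 in E8 and 61.6 and 76.7 in mTeSR. COL4A2, its partner chain across the shared upstream bases, was at 5.68 to 7.17 (median 6.44) CPM in naive cells, at 101 and 101 in N2B27, at 58.4 and 59.3 in E8 and at 76.0 and 82.0 in mTeSR. All day 8 libraries lay above all naive ones for both genes. The log2 fold changes were 3.97 ± 0.15, 3.59 ± 0.15 and 3.38 ± 0.15 for COL4A1 and 3.96 ± 0.14, 3.18 ± 0.15 and 3.61 ± 0.15 for COL4A2, with adjusted p between 9.87e-22 and 1.28e-18 for COL4A2. The ratio of their CPM values stayed between 0.571 and 1.75 in the 38 libraries (median 1.04), a ratio that also carries whatever differs between the genes in the capture of their 3′ ends.

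The genes of the second pair rose in every medium as well. COL4A5 was at 0 to 1.37 (median 0.495) CPM there and at 10.1 and 9.75 CPM in N2B27 at day 8 (log2 fold change 4.01 ± 0.45), with 3.72 ± 0.47 in E8 and 3.72 ± 0.49 in mTeSR. COL4A6 was at the floor in naive cells, with 11.2 and 7.59 CPM in N2B27, 10.7 and 8.95 in E8 and 7.87 and 6.44 in mTeSR. It was thus at least 9.19-fold, 9.58-fold and 6.98-fold higher than in naive cells.

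COL18A1, the basement membrane collagen from which endostatin is cleaved, rose in the 3 media to levels that overlapped. It was at 3.54 to 5.46 (median 4.34) CPM in naive cells, at 170.1 and 140.0 in N2B27, at 113 and 190.2 in E8 and at 189 and 154 in mTeSR. Each medium's libraries overlapped with those of the others, and the log2 fold changes were 5.11 ± 0.17, 5.08 ± 0.17 and 5.26 ± 0.17 (adjusted p = 8.39e-23, 8.41e-23 and 3.96e-23).

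The proteins that link the collagen IV and laminin networks rose as well. NID1, nidogen 1, was at 3.60 to 5.46 (median 4.32) CPM in naive cells, at 35.5 and 38.7 in N2B27, at 20.2 and 29.0 in E8 and at 28.5 and 36.1 in mTeSR (log2 fold changes 3.102 ± 0.19, 2.50 ± 0.20 and 2.90 ± 0.20). HSPG2 was at 0.221 to 5.46 (median 0.579) CPM in naive cells, where both Ex2 libraries (5.46 and 3.04) lay above all 4 of Ex1. At day 8 it was at 24.01 and 22.2 CPM in N2B27, 11.8 and 11.8 in E8 and 13.6 and 14.3 in mTeSR (log2 fold changes 4.003 ± 0.40, 3.03 ± 0.43 and 3.27 ± 0.44). NID2 was a gene of few counts, with 4.19 and 3.25 CPM in N2B27 at day 8 (log2 fold change 3.63 ± 0.68). Its calls in E8 (2.21 ± 0.82) and mTeSR (2.36 ± 0.86) were lost without either E8 library or replicate 2 of naive cells on Geltrex in Ex1 (adjusted p = 0.0591, 0.145 and 0.0539), and without replicate 2 of mTeSR (adjusted p = 0.66).

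The laminin chains did not move together. LAMA5 and LAMC1, chains of laminin-511, were at 58.4 to 79.2 (median 65.3) and 144 to 195 (median 175) CPM in naive cells. LAMA5 had log2 fold changes of -0.03 ± 0.14, 0.26 ± 0.14 and 0.28 ± 0.14 in N2B27, E8 and mTeSR, and LAMC1 of 0.33 ± 0.095, -0.13 ± 0.098 and 0.53 ± 0.09, and neither was called. LAMB1, the beta chain of laminin-111 and laminin-511, rose from 23.5 to 43.5 (median 32.5) CPM to 115 and 97.4 in N2B27 and 88.8 and 99.9 in mTeSR (log2 fold changes 1.67 ± 0.15 and 1.499 ± 0.16). In E8 it was at 49.1 and 42.9 CPM, which overlapped with the naive range, and was not called (0.47 ± 0.17, adjusted p = 0.0219).

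LAMA1, the alpha chain of laminin-111 of the earliest embryonic basement membranes, was at 29.7 to 41.5 (median 34.7) CPM in naive cells and at 74.2 and 64.5 CPM in N2B27 at day 8. Its log2 fold change of 0.98 ± 0.16 there missed the fold threshold (adjusted p = 7.82e-06) and passed it, at up to 1.10, under 5 other settings and without replicate 2 of N2B27, replicate 1 of naive cells on Geltrex in Ex1 or either naive library of Ex2 (1.08, 1.01, 1.02 and 1.06). In E8 and mTeSR, LAMA1 overlapped with naive cells (-0.16 ± 0.18 and 0.00 ± 0.18). LAMA2, the alpha chain of muscle laminin, rose from 2.62 to 3.98 (median 3.15) CPM to 26.7 and 28.9 CPM in N2B27 (log2 fold change 3.13 ± 0.19, with 2.33 ± 0.20 in E8 and 3.26 ± 0.19 in mTeSR). LAMA4, which belongs to the laminins of blood vessels, was at the floor in naive cells and at least 9.68-fold higher in N2B27, 9.42-fold in E8 and 9.31-fold in mTeSR. LAMB2 was not called, with values of 0.101 ± 0.36, 0.79 ± 0.33 and 0.07 ± 0.39.

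Fibronectin rose most in N2B27. FN1 was at 165 to 203 (median 176) CPM in the naive libraries and at 1164 and 1024 CPM in N2B27, 367 and 558 in E8 and 559.5 and 648 in mTeSR, without overlap. The log2 fold changes were 2.62 ± 0.15, 1.38 ± 0.15 and 1.76 ± 0.15 (adjusted p = 1.42e-16, 2.74e-09 and 8.12e-12). SPARC, a collagen-binding glycoprotein, was at 246 to 285 (median 275) CPM in naive cells and was not called, with log2 fold changes of 0.13 ± 0.09, -0.01 ± 0.09 and -0.20 ± 0.09. COL9A3, a chain of cartilage type IX collagen, was at 201 to 234 (median 227) CPM in naive cells and at 293 and 297 CPM in N2B27 at day 8, a rise below the fold threshold (0.41 ± 0.12, 0.31 ± 0.13 and 0.59 ± 0.12). COL6A1, a chain of microfibrillar type VI collagen, differed between the naive libraries themselves, with 29.4 and 29.1 CPM in Ex2 and 10.9 to 18.2 in Ex1, and was not called (-0.46 ± 0.27, -0.07 ± 0.26 and 0.37 ± 0.26).

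Several collagens of the other classes rose from the floor. COL13A1, a transmembrane collagen of cell junctions, was at 19.4 and 16.4 CPM in N2B27 at day 8, 3.56 and 1.88 in E8 and 10.6 and 12.9 in mTeSR. It thus stood above the naive floor by at least 17.5-fold in N2B27, 2.66-fold in E8 and 11.4-fold in mTeSR. COL22A1, found at tissue junctions, was at least 4.76-fold, 6.99-fold and 4.87-fold higher. COL25A1, a membrane collagen of neurons, was at least 6.42-fold, 6.39-fold and 6.06-fold higher. COL7A1, the anchoring fibril collagen, was measurable in naive cells at 0.341 to 1.11 (median 0.886) CPM and reached 9.25 and 9.39 CPM in N2B27, 15.7 and 19.3 in E8 and 17.4 and 15.4 in mTeSR (log2 fold changes 3.40 ± 0.35, 4.30 ± 0.32 and 4.21 ± 0.33). COL14A1, which decorates collagen fibrils, was called in E8 (2.92 ± 0.32) and mTeSR (2.48 ± 0.34) but not in N2B27 (0.74 ± 0.40).

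Further collagens and laminins rose in at least 1 medium. COL8A1, COL9A1, COL26A1 and LAMA3 rose in all media, COL9A1 and LAMA3 from the floor. COL26A1 was at 3.71 to 13.7 (median 5.02) CPM in naive cells and rose by 1.898 ± 0.26, 2.04 ± 0.25 and 1.98 ± 0.26. LAMA3, the alpha chain of laminin-332, was at least 3.32-fold higher in N2B27, 5.62-fold in E8 and 2.42-fold in mTeSR. COL8A2 rose by 2.15 ± 0.55, 2.20 ± 0.55 and 1.96 ± 0.60, where the call in N2B27 was lost without replicate 2 of N2B27 (adjusted p = 0.158) and that in mTeSR without replicate 2 of mTeSR (0.0981). COL6A2, another chain of type VI collagen, rose by 1.11 ± 0.27 in N2B27 and 1.40 ± 0.28 in mTeSR, and the N2B27 value fell to 0.97 without replicate 2 of naive cells on Geltrex in Ex1. COL6A3 was at the floor in naive cells and at least 2.55-fold higher in N2B27 and 1.74-fold in E8, the latter lost without replicate 2 of E8 (adjusted p = 0.223).

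Other genes of this kind were called in E8 or mTeSR but not in N2B27. COL12A1 was at least 2.11-fold above naive cells in E8. LAMB3, the beta chain of laminin-332, was at 2.43 to 6.09 (median 4.30) CPM in naive cells and at 10.1 and 7.77 in E8 (1.08 ± 0.30), a call lost without replicate 1 of E8 (adjusted p = 0.0950) or replicate 1 of naive cells on serum coating (log2 fold change 0.96). COL21A1 was called in E8 (1.35 ± 0.41) and mTeSR (1.19 ± 0.45), but the E8 call was lost without replicate 1 of E8 (adjusted p = 0.145), and the mTeSR call without replicate 2 of mTeSR or replicate 2 of naive cells on Geltrex in Ex1 or Ex2 (0.429, 0.0515 and 0.0525). LAMC3 was called in mTeSR alone (1.11 ± 0.41), lost without replicate 2 of mTeSR or either naive library on Geltrex in Ex1 (0.588, 0.0524 and 0.0541).

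The collagens that fell were COL17A1 and COL19A1. COL17A1, a transmembrane collagen of hemidesmosomes, dropped from 5.53 to 10.6 (median 9.56) CPM to 1.32 and 1.99 in N2B27, 0.937 and 0.942 in E8 and 0.814 and 1.68 in mTeSR (log2 fold changes -2.40 ± 0.41, -3.21 ± 0.46 and -2.82 ± 0.46). COL19A1 was uneven among the naive libraries, with 0.341 to 12.8 (median 4.94) CPM, and its day 8 libraries in N2B27 and E8 overlapped with that range. Its call in N2B27 (-2.66 ± 0.80) was lost without replicate 2 of N2B27 at day 8 (adjusted p = 0.0924).

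The integrin that marked naive cells was ITGAM, the alpha chain of the leukocyte receptor Mac-1. ITGAM was at 30.7 to 48.9 (median 46.7) CPM in the 6 naive libraries, at 8.60 and 7.12 CPM after 2 days in N2B27 and at 1.39 and 0.358 after 4 days. At day 8 it was at the floor in all media, at least 64.9-fold lower than naive in N2B27, 60.7-fold in E8 and 51.1-fold in mTeSR. ITGB2, the beta chain with which ITGAM pairs, was at 3.98 to 9.41 (median 7.34) CPM in naive cells and at 16.3 and 10.1 CPM in N2B27 at day 8, a difference that was not called.

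ITGB1 rose in every medium, and so did several of its alpha partners. ITGB1 was at 62.6 to 90.1 (median 77.5) CPM in naive cells, at 259.5 and 243 in N2B27, at 280.2 and 257 in E8 and at 288 and 297 in mTeSR. The log2 fold changes were 1.71 ± 0.098, 1.81 ± 0.097 and 1.93 ± 0.098 (adjusted p = 2.33e-16, 4.28e-17 and 8.88e-18), with no overlap. ITGA1 and ITGA2 are alpha chains of collagen receptors. ITGA1 rose from 0 to 0.722 (median 0.221) CPM to 10.4 and 10.5 CPM in N2B27 (log2 fold change 4.95 ± 0.34, with 4.85 ± 0.35 in E8 and 5.22 ± 0.34 in mTeSR). ITGA2 was at the floor in naive cells and at least 8.42-fold higher in N2B27, 12.9-fold in E8 and 16.5-fold in mTeSR.

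The alpha chains of laminin receptors differed in how far they moved. ITGA6, the alpha chain of the main laminin receptors of pluripotent cells, was at 47.0 to 112 (median 92.9) CPM in naive cells, where the Ex2 libraries (52.9 and 47.0) lay below those of Ex1. At day 8 it was at 126 and 128 CPM in N2B27 and 166 and 161 in E8, and its log2 fold changes of 0.62 ± 0.17, 0.98 ± 0.17 and 0.59 ± 0.18 were not called. The E8 value passed the fold threshold when any 1 of the 4 naive libraries of Ex1 was left out (1.00 to 1.08). ITGA7, another laminin receptor chain, rose by 1.96 ± 0.24 in E8 and 2.26 ± 0.24 in mTeSR. In N2B27 its call (1.04 ± 0.26) was lost without replicate 2 of N2B27 at day 8 (0.81, adjusted p = 0.0702), and without replicate 2 of either naive coating in Ex1 its log2 fold change fell to 0.94 and 1.00, just under the threshold. ITGA3 rose from 0.437 to 1.08 (median 0.618) CPM by 2.86 ± 0.46, 3.27 ± 0.44 and 2.42 ± 0.51, and ITGA9, which pairs with ITGB1 and binds tenascin, rose by 3.26 ± 0.24, 2.77 ± 0.25 and 2.90 ± 0.26.

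Of the receptors for fibronectin and vitronectin, ITGA5, the alpha chain of the classical fibronectin receptor, was at the floor in naive cells and at 5.73 and 4.15 CPM in N2B27 at day 8, at least 4.82-fold higher. In mTeSR it was at least 2.16-fold higher. In E8 it reached 1.12 and 1.41 CPM (at least 1.24-fold), a call lost without either E8 library (adjusted p = 0.0671 and 0.11). ITGAV rose from 3.41 to 14.8 (median 10.1) CPM by 1.42 ± 0.23 in N2B27 and 1.23 ± 0.24 in E8, and its 0.93 ± 0.25 in mTeSR was not called. The E8 value fell to 0.95 against the naive libraries of Ex1 alone, and the mTeSR value passed the threshold without replicate 2 of mTeSR or either library on serum coating (1.08, 1.08 and 1.05). ITGB5 was at 302 to 466 (median 410.4) CPM in naive cells and was not called, with 0.37 ± 0.12, 0.41 ± 0.12 and 0.82 ± 0.12. ITGB8, another beta partner of ITGAV, rose from 0 to 1.53 (median 0.956) CPM to 10.1 and 8.85 in N2B27 (log2 fold change 3.37 ± 0.41, with 2.27 ± 0.49 in mTeSR). Its rise in E8 (1.59 ± 0.51) was lost without replicate 2 of E8 at day 8 (adjusted p = 0.0766). ITGAE, the alpha chain of a lymphocyte receptor for E-cadherin, was not called (-0.01 ± 0.29, 0.48 ± 0.28 and -0.23 ± 0.32).

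The summed levels of several lists of markers of other cell types were higher at day 8 than in naive cells, while that of the amnion list was not. The summed level of 6 primitive endoderm markers was 7.58 to 11.95 CPM in naive cells, 161 and 181 in N2B27 at day 8 with all 6 genes above 3 counts, 81.4 in both mTeSR libraries, and 13.4 and 17.4 in E8, where HNF4A and APOA1 were at the floor. This list also holds SOX17, FOXA2 and GATA6. The study used SOX17 and FOXA2 as endoderm and GATA6 as mesoderm markers of the germ layers. The list therefore does not tell primitive endoderm from germ layer cells. The summed level of 5 primitive streak and mesoderm markers was 3.07 to 21.8 CPM in naive cells, 234 and 311 in N2B27, 149 and 197 in mTeSR, and 36.3 and 38.9 in E8, where MESP1 was at 0. Both lists were highest in N2B27, lower in mTeSR and lowest in E8 among the day 8 cultures. For 6 trophectoderm markers the sum was 6.36 to 10.1 CPM in naive cells, 59.4 and 70.5 in N2B27, 13.7 and 18.6 in E8, and 11.2 and 11.4 in mTeSR. Of these markers, the study describes TFAP2A, KRT7 and, to a lesser extent, GATA3 and GATA2 as common to trophoblast stem cells and amnion. The lists therefore do not tell trophectoderm from amnion. The 6 fibroblast markers reached 17.7 and 20.5 CPM in N2B27, 14.8 and 15.3 in E8 and 13.2 and 16.02 in mTeSR, against 1.35 to 5.76 in naive cells, and DCN was at 0 in N2B27 and mTeSR and at the floor in E8. The 3 amnion markers were at 3.60 to 9.39 CPM in naive cells and at 2.52 to 9.25 at day 8. The 5 markers of naive pluripotency summed to 1044 to 1315 CPM in naive cells and 318 to 390 at day 8, and 3 general pluripotency markers to 1372 to 1822 and 1286 to 1863. The part of such cells in the rise of the matrix and integrin genes was not tested.

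The changes began within 2 days in N2B27. At day 2, 24 of the 64 genes were called, 19 higher and 5 lower, where 16.2% of all genes were called (9.86% higher and 6.30% lower). Of the 19 higher genes, COL9A1 and COL22A1 were at the floor at day 2 as in naive cells, so that their calls rest on at most 3 counts per library. The 5 lower genes were ITGAM (-2.44 ± 0.28), ITGB2 (-2.32 ± 0.51), COL19A1, LAMB3 and LAMC3, and the last 3 were lost without either N2B27 library of day 2 (adjusted p from 0.0521 to 0.135). At day 4 the number was 35, 31 higher and 4 lower (18.4% of all genes, 12.5% higher and 5.96% lower). COL1A2 had reached 44.2 and 36.3 CPM at day 2 (log2 fold change 5.50 ± 0.21, adjusted p = 2.41e-20) and lay between 68.5 and 83.2 CPM in the 4 day 4 libraries of both experiments (6.41 ± 0.18). NID1 was at 35.4 and 29.2 CPM at day 2, already within the range of its day 8 libraries in the 3 media (log2 fold change 2.91 ± 0.19).

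LAMB1 and ITGB1 were early genes too. LAMB1 was at 124 and 112 CPM at day 2 (1.82 ± 0.15) and at 58.6 to 80.6 CPM at day 4 (1.08 ± 0.13). ITGB1 was at 161 and 203 CPM at day 2 (1.25 ± 0.1002) and at 202 to 223 CPM at day 4 (1.46 ± 0.08). COL4A1 and COL4A2 rose by 1.35 ± 0.18 and 1.37 ± 0.18 at day 2 and by 2.05 ± 0.14 and 1.96 ± 0.14 at day 4. LAMA4 was at least 2.20-fold above naive cells at day 2 and at least 14.8-fold at day 4. ITGA1 was at 13.5 to 16.8 CPM at day 4 (5.51 ± 0.28). Against naive cells, COL18A1 had risen by 2.997 ± 0.17 and NID1 by 2.38 ± 0.17 at day 4, and ITGAM stood at -5.42 ± 0.29. COL5A1 was called higher at day 2 (1.46 ± 0.28) but not at day 4, when its libraries overlapped with naive ones (-0.65 ± 0.28, adjusted p = 0.0574).

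**Figure D3:**
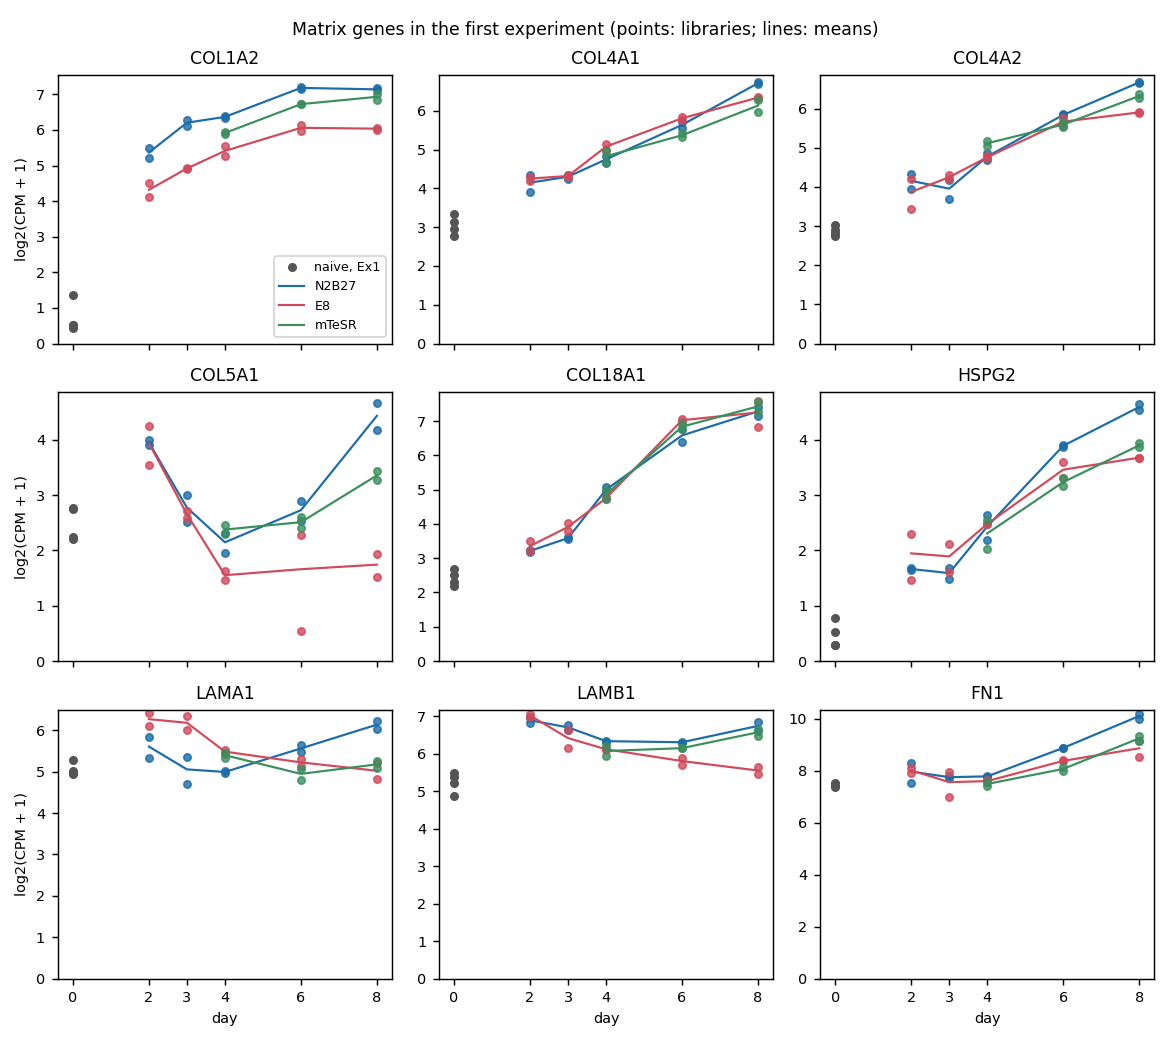
Levels of 9 matrix genes in Ex1 on the log2(CPM + 1) scale against the day, with points for libraries (naive in grey at day 0, N2B27 in blue, E8 in red, mTeSR in green) and lines through the means of 2 libraries. COL1A2 is above 30 CPM in N2B27 from day 2 on, COL18A1 climbs from day 2 to day 8, FN1 climbs after day 4, and LAMA1 falls in E8 from day 2 to day 8 while it rises in N2B27 after day 4.

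After day 4 some genes rose for the first time and others rose further. Between day 4 and day 8 in N2B27, 22 of the 64 genes were called and all were higher, where 7.50% of all genes were called (5.78% higher and 1.73% lower). FN1 was at 216 and 220.4 CPM at day 4, at 469.7 and 464 at day 6 and at 1164 and 1024 at day 8 (day 8 against day 4: log2 fold change 2.33 ± 0.20, adjusted p = 1.52e-10). COL5A2 went from 2.08 and 1.97 CPM over 16.05 and 15.1 to 62.1 and 49.5 (4.76 ± 0.31) and HSPG2 from 5.20 and 3.58 over 14.0 and 13.7 to 24.01 and 22.2 (2.38 ± 0.26). In each of these genes no library of 1 day overlapped with those of another. COL5A1 rose by 2.57 ± 0.34, from 3.99 and 2.87 to 24.2 and 17.0 CPM, and was at 4.79 and 6.45 CPM at day 6. COL4A1, COL4A2 and COL18A1 rose by 2.01 ± 0.14, 1.93 ± 0.16 and 2.32 ± 0.18, and LAMA1 by 1.17 ± 0.18. The libraries of ITGA1 and LAMA4 lay lower at day 8 than at day 4, although neither gene was called. ITGA1 was at 16.8 and 16.7 CPM at day 4, 15.2 and 14.7 at day 6 and 10.4 and 10.5 at day 8, and LAMA4 at 17.3 and 17.0, then 20.4 and 18.5 and then 10.8 and 9.03.

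**Figure D4:**
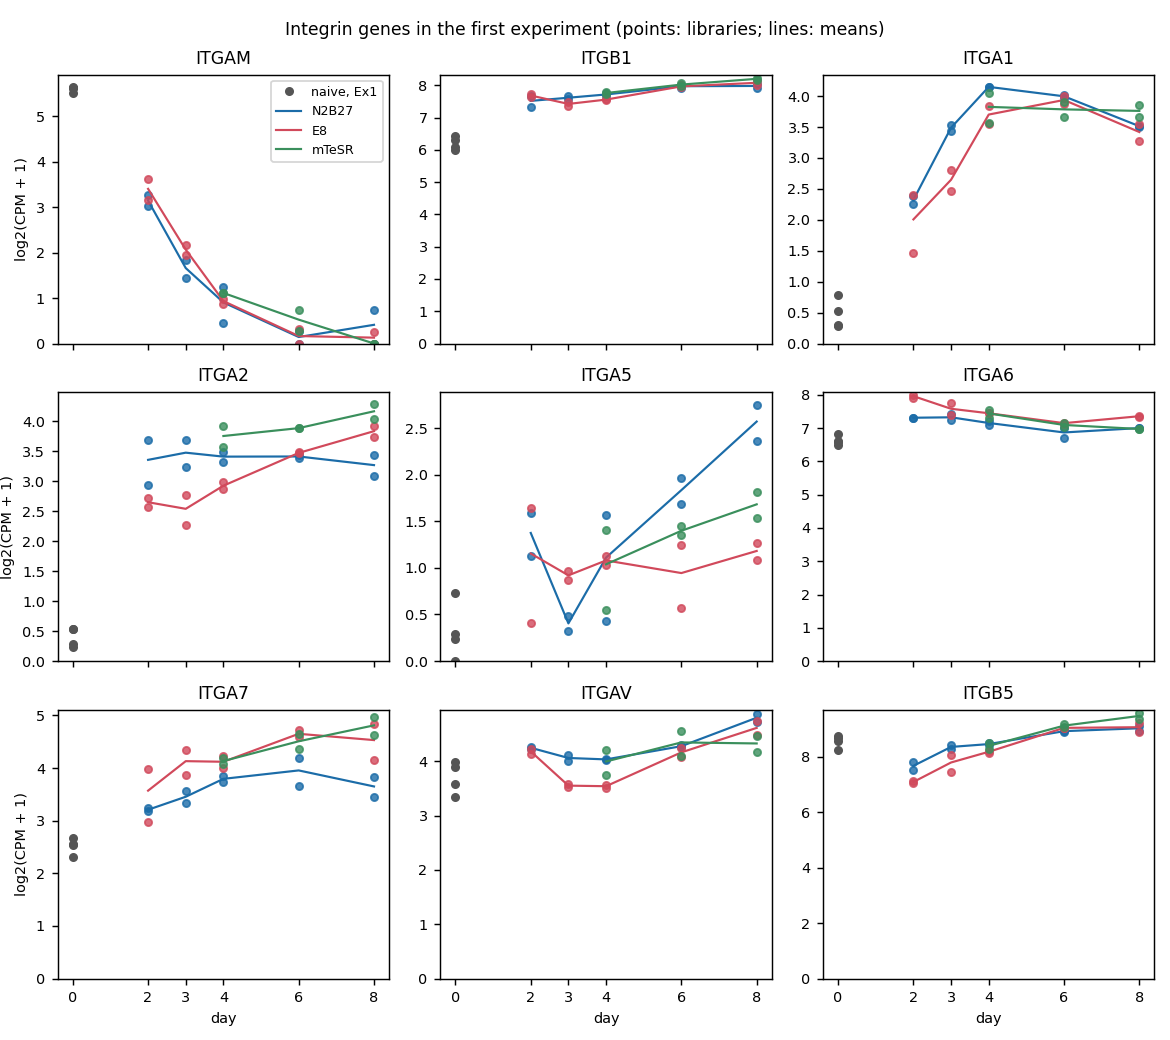
Levels of 9 integrin genes in Ex1 on the log2(CPM + 1) scale against the day, drawn as for the matrix genes. ITGAM falls in every medium and lies below 3 CPM from day 4 on, ITGB1, ITGA1 and ITGA2 are above naive cells from day 2, and ITGB5 dips at day 2, more in E8 than in N2B27.

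The course from day 2 to day 8 differed between E8 and N2B27 for 9 of the 64 genes, by an F-test of the medium and day interaction over 5 days (11.0% of all genes passed). The share among the 64 genes was thus near that of all genes. The values below describe single genes. These were COL1A1, COL4A2, COL5A1, COL6A1, FN1, ITGA2, ITGB5, LAMA1 and LAMB1. LAMA1 had the largest F, 24.9 (adjusted p = 1.34e-06). It was at 67.9 and 84.3 CPM in E8 at day 2 and 27.2 and 35.8 at day 8, and at 39.4 and 56.0 and then 74.2 and 64.5 CPM in N2B27, so that the order of the media turned. LAMB1 (F = 13.3, adjusted p = 0.000189) began at 125 and 134 CPM in E8 and ended at 49.1 and 42.9, whereas in N2B27 it began at 124 and 112 and ended at 115 and 97.4. COL5A1 (F = 11.5, adjusted p = 0.000536) began at like levels, 10.6 and 18.0 CPM in E8 and 14.0 and 14.9 in N2B27, and parted by day 8.

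COL6A1 (F = 11.6, adjusted p = 0.000484) was lower in N2B27 in the middle of the course. At day 3 it was at 4.92 and 8.01 CPM in N2B27 and 29.7 and 36.3 in E8. ITGB5 (F = 5.55, adjusted p = 0.0242) was at 131 and 138 CPM in E8 at day 2, below its naive range, and at 473 and 591 at day 8, against 221 and 183 and 549 and 487 in N2B27. ITGA2 (F = 7.16) was at 4.95 and 5.58 CPM in E8 at day 2 and 12.4 and 14.1 at day 8, against 11.8 and 6.64 and 7.49 and 9.75 in N2B27. The remaining genes were COL1A1 (F = 9.71), FN1 (F = 6.77) and COL4A2 (F = 5.41). In a fit to the libraries of these 2 courses alone COL4A2, FN1, ITGA2 and ITGB5 no longer passed (adjusted p = 0.122, 0.105, 0.0665 and 0.112). COL4A2 was also lost without either day 8 library of E8 (0.0734 and 0.0505) or of N2B27 (0.0750 and 0.0716) or without replicate 1 of N2B27 at day 3 (0.0506), FN1 without replicate 1 of E8 or of N2B27 at day 8 (0.0920 and 0.0623), and ITGB5 without any of 5 libraries (replicates 1 and 2 of E8 at day 6, and replicate 1 of N2B27 at day 2, replicate 1 at day 6 and replicate 2 at day 8), with adjusted p from 0.0508 to 0.0534.

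At day 4 few of these genes were called between the media. Between E8 and N2B27, 4 of the 64 genes were called, 3 higher and 1 lower in E8, where 2.49% of all genes were called (1.36% higher and 1.13% lower). COL6A1 was at 25.9 and 31.0 CPM in E8 and 6.41 and 7.88 in N2B27 (log2 fold change 1.99 ± 0.23, adjusted p = 7.92e-07). COL1A1 was at 31.1 and 32.7 CPM in E8 and 14.4 and 12.2 in N2B27 (1.263 ± 0.17, adjusted p = 1.17e-05). COL1A2 and LAMA4 were lower in E8 without overlap of libraries and lay just under the fold threshold. COL1A2 was at 37.2 and 46.0 CPM in E8 and 83.2 and 79.9 in N2B27 (-0.97 ± 0.14, adjusted p = 1.41e-05), and LAMA4 at 8.98 and 8.28 and 17.3 and 17.0 (-0.99 ± 0.24, adjusted p = 0.00835). Both passed it with library totals as the scaling (-1.03 and -1.05), and COL1A2 without replicate 2 of E8 at day 4 (-1.13). The calls of COL7A1 (1.18 ± 0.25) and COL24A1 (at least 3.79-fold lower in E8) were both lost without replicate 1 of E8 at day 4 (adjusted p = 0.0959 and 0.146), and that of COL7A1 also without replicate 2 of N2B27 (adjusted p = 0.0853). Between mTeSR and N2B27, 2 genes were called, 1 in each direction (1.58% of all genes, 0.810% higher and 0.768% lower). COL6A1 was higher in mTeSR, at 30.1 and 27.6 CPM (2.01 ± 0.24, adjusted p = 1.55e-06). ITGB2 was lower, at 1.18 and 1.38 CPM against 4.33 and 7.53 in N2B27 (-2.18 ± 0.52), a call lost without either mTeSR library or without replicate 2 of N2B27 (adjusted p from 0.0861 to 0.173).

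At day 8 more of the genes were called between the media than at day 4. Between E8 and N2B27, 15 of the 64 genes were called, 4 higher and 11 lower in E8, where 7.29% of all genes were called (3.33% higher and 3.96% lower). The 4 higher genes were COL11A1, COL12A1, COL14A1 and LAMB3, and the 11 lower ones were COL1A2, COL3A1, COL5A1, COL5A2, COL13A1, FN1, LAMA1, LAMB1, ITGA5, ITGB2 and ITGB8. COL5A1 was 8.497-fold lower in E8 (log2 fold change -3.09 ± 0.37, adjusted p = 2.33e-07) and COL5A2 2.72-fold lower (-1.44 ± 0.23, adjusted p = 3.41e-05). COL1A2 was 2.17-fold lower (-1.12 ± 0.13, adjusted p = 1.21e-07) and COL3A1 at least 4.58-fold lower, although DESeq2 gave COL3A1 an adjusted p of 0.233. FN1 was 2.37-fold lower (-1.24 ± 0.19, adjusted p = 1.69e-05), a difference that fell to -0.97, under the fold threshold, without replicate 1 of E8. LAMB1 was 2.30-fold lower (-1.20 ± 0.14, adjusted p = 9.95e-08) and LAMA1 2.21-fold lower (-1.15 ± 0.18), where LAMA1 fell to -0.95 without replicate 1 of E8.

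The basement membrane collagens differed less between E8 and N2B27. COL4A1 (-0.38 ± 0.13, adjusted p = 0.0413) and COL4A2 (-0.78 ± 0.15, adjusted p = 0.000355) were lower in E8 by less than the fold threshold with no overlap of libraries, and COL18A1 overlapped (-0.03 ± 0.16, adjusted p = 0.915). Among the integrins, ITGB8 was lower in E8 (-1.79 ± 0.41, adjusted p = 0.00199), while the call of ITGA5 (-1.94 ± 0.58) was lost without replicate 1 of E8 or of N2B27 (adjusted p = 0.136 and 0.122). LAMB3 was higher in E8 (1.13 ± 0.38), a call lost without replicate 1 of E8 or either N2B27 library (adjusted p = 0.236, 0.0670 and 0.231). The same 3 libraries decided the call of COL12A1 (at least 3.27-fold higher in E8, adjusted p = 0.179, 0.214 and 0.0852 without them). COL11A1 (1.17 ± 0.32) was lost without replicate 2 of N2B27 (0.0884), and ITGB2 (-1.41 ± 0.37) without replicate 1 of E8 or of N2B27 (0.0859 and 0.144). COL13A1 (-2.67 ± 0.36, adjusted p = 2.57e-06) and COL14A1 (2.18 ± 0.39, adjusted p = 0.000129) were called without any single library. The summed primitive endoderm, streak and trophectoderm markers given above were lower in E8 than in N2B27 as well, and their part in these differences was not tested.

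mTeSR lay between the other media for several of these genes. Between mTeSR and N2B27 at day 8, 7 of the 64 genes were called, 3 higher and 4 lower in mTeSR (3.80% of all genes, 1.65% higher and 2.15% lower). COL5A1 (-1.15 ± 0.31) and COL5A2 (-1.02 ± 0.23) were lower in mTeSR, with adjusted p of 0.0146 and 0.00340. Both calls were lost without replicate 2 of mTeSR (adjusted p = 0.0831 and 0.0811) or replicate 1 of N2B27 (0.183 and 0.0765), and that of COL5A1 also without replicate 1 of mTeSR (0.118). ITGA7 was higher in mTeSR, at 23.6 and 30.5 CPM against 9.91 and 13.2 (1.21 ± 0.26, adjusted p = 0.00151, and 0.0554 without replicate 2 of mTeSR). The other called genes were COL3A1, COL11A1 (1.25 ± 0.32), COL14A1 (1.74 ± 0.41) and ITGB2 (-1.86 ± 0.41). COL3A1 and COL11A1 were lost without any 1 of the 4 libraries (adjusted p from 0.0527 to 0.165), COL14A1 without replicate 2 of mTeSR or of N2B27 (0.120 and 0.0548), and ITGB2 without replicate 1 of N2B27 (0.0617). FN1 was not called (-0.86 ± 0.19, adjusted p = 0.00267), nor were COL4A1 (-0.59 ± 0.14) and COL4A2 (-0.35 ± 0.15).

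Between mTeSR and E8 at day 8, 5 genes were called, 3 higher and 2 lower in mTeSR (5.31% of all genes, 2.51% higher and 2.79% lower). They were COL5A1, COL13A1 and LAMB1 on the higher side and COL12A1 and LAMB3 on the lower. LAMB1 was 2.05-fold higher in mTeSR (1.03 ± 0.14, adjusted p = 3.84e-06) and fell just under the fold threshold without replicate 2 of E8 or of mTeSR (0.94 and 0.95). COL12A1 (at least 2.57-fold lower) and LAMB3 (-1.63 ± 0.42) were lost without replicate 1 of E8 or either mTeSR library (adjusted p from 0.0504 to 0.200). COL5A1 was 3.83-fold higher (1.94 ± 0.42, adjusted p = 0.00165), and FN1 was not called (0.39 ± 0.19, adjusted p = 0.189).

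The second experiment asked what tankyrase inhibition, alone or with FGF2 and Activin A, does to the cells at day 4. Between XAV and N2B27, 1 of the 64 genes was called, where 0.570% of all genes were (0.0360% higher and 0.534% lower). COL18A1 was at 43.2 and 38.5 CPM in N2B27, at 20.9 and 16.9 in XAV and at 24.7 and 23.9 in FAX, beside 3.76 and 5.26 in naive cells. It was 2.16-fold lower in XAV than in N2B27 (-1.11 ± 0.21, adjusted p = 0.00147) without overlap, and the call was lost without replicate 2 of XAV (-0.96, adjusted p = 0.0858).

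Between FAX and N2B27 none of the 64 genes was called by edgeR or DESeq2, where 0.336% of all genes were called. At an unadjusted p under 0.05 there were 18 of the 64, beside 1461 of all 16674 genes. Between FAX and XAV none was called by either tool, where 0.0120% of all genes were called, and 3 of the 64 had an unadjusted p under 0.05, beside 937 of all 16674 genes. The group of 64 had a median log2 difference of -0.16 in XAV and -0.15 in FAX against N2B27, beside 0.01 and -0.01 for all genes. COL4A1 was at 29.2 and 29.0 CPM in N2B27, 19.5 and 16.5 in XAV and 19.6 and 18.0 in FAX, where the N2B27 libraries were the highest by a difference below the fold threshold. ITGB1 was at 202 and 223 CPM in N2B27, 169.8 and 154 in XAV and 194 and 183 in FAX, in the same order of N2B27 above the others. FN1 was at 239.7 and 228 CPM in N2B27, 217 and 221 in XAV and 187 and 187 in FAX. XAV and FAX were set against the same N2B27 libraries.

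**Figure D5:**
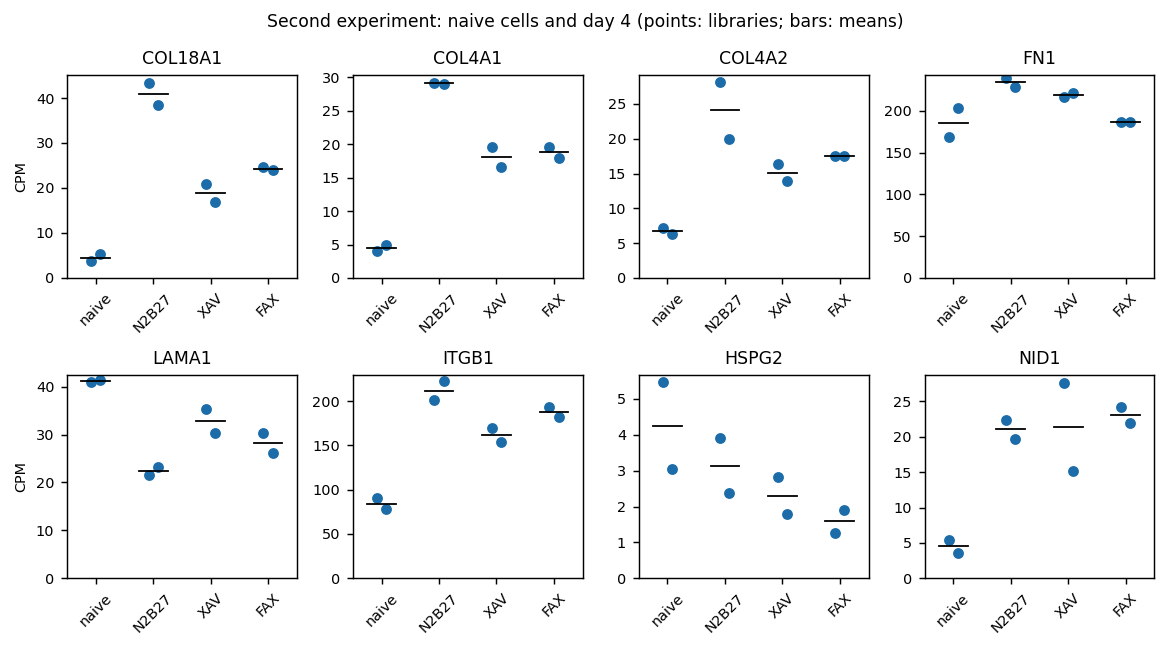
Levels in CPM of 8 genes in the second experiment, in naive cells and at day 4 in N2B27, XAV and FAX, with points for libraries and bars for the means of 2. COL18A1 is near 41 CPM in N2B27 and below 25 CPM in XAV and FAX, and HSPG2 is not above its naive libraries in any day 4 group.

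The response to N2B27 by day 4, against naive cells on Geltrex of the same experiment, differed between the experiments for 3 of the 64 genes (6.48% of all genes, 2.85% with a higher and 3.63% with a lower response in Ex2). Their share among the 64 genes was near that of all genes. HSPG2 was at 0.224 and 0.722 CPM in naive cells and 5.20 and 3.58 at day 4 in Ex1, but at 5.46 and 3.04 and then 3.91 and 2.38 in Ex2, where the groups overlapped (Ex2 minus Ex1, difference of log2 fold changes -3.48 ± 0.64, adjusted p = 0.000432). COL24A1 had at most 3.07 CPM in these libraries and a fitted difference of -5.40 ± 1.32, which depends on the prior count because both Ex2 day 4 libraries were at the floor. It was lost without replicate 1 of the Ex2 naive cells (adjusted p = 0.0789). ITGA11 had a difference of -1.22 ± 0.40 (adjusted p = 0.0413), lost without any 1 of the 8 libraries (adjusted p from 0.055 to 0.166). The type IV collagens, COL1A2, COL18A1, FN1 and ITGB1 were not called in this test.

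No difference between the coatings was called in naive cells. None of the 64 was called between Geltrex and serum coating in Ex1 by edgeR or DESeq2, where 0.0480% of all genes were called. At an unadjusted p under 0.05 there were 9 of the 64, beside 2355 of all 16674 genes. COL4A1 was at 9.08 and 6.77 CPM on serum coating and 5.84 and 7.76 on Geltrex (log2 difference -0.20 ± 0.23), and FN1 at 179 and 181 and 172 and 165 (-0.09 ± 0.20). ITGB1 was at 62.6 and 67.7 CPM on serum coating and 86.0 and 77.2 on Geltrex, which did not overlap but did not pass the test (0.32 ± 0.11, adjusted p = 0.174).

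Other genes of the matrix and of adhesion were read from 5 lists, counting only listed genes with enough counts to be tested. DCN, LUM, BGN, EMILIN1, CCN1, CCN2, BMP1, LOX, LOXL4 and MMP17 were listed but not tested. Of 18 matrix glycoproteins and proteoglycans tested beside the genes above, 15 rose in N2B27 at day 8, 17 in E8 and 16 in mTeSR, and none fell. Of 16 matrix proteases and inhibitors, 12, 12 and 11 rose and 1 fell, in E8. Of 11 receptors other than integrins, 6, 7 and 6 rose, and of 18 adaptor proteins of focal adhesions 9, 8 and 9, with none falling. Of 17 enzymes and chaperones of collagen modification, 6, 5 and 8 rose and 2 fell, in E8. The shares of all genes that were higher were 16.9%, 18.2% and 16.9%. Among all genes above 10 counts in no naive library they were 55.1%, 56.9% and 53.0%. The lists were not split by their naive detection. The gene of each list with the highest fitted log2 fold change in N2B27, a value that depends on the prior count for genes at the naive floor, was ADAMTS1, a secreted protease (log2 fold change 7.13 ± 0.25, from 0.822 ± 0.659 to 129 ± 1.89 CPM), FKBP10, a collagen chaperone (3.69 ± 0.30), PARVA, an adaptor between integrins and actin (2.31 ± 0.17), SDC1, a heparan sulfate proteoglycan of the cell surface (at least 23-fold above the naive floor), and FREM2, a basement membrane protein (at least 5.28-fold).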

How the data were processed

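RNA from 38 Shef6 cultures was sequenced as 3′ tags from the ends of transcripts. The authors processed the reads with nf-core/rnaseq, which names FastQC 0.11.9, Salmon 1.9.0 and STAR 2.7.10a, against hg38, and deposited 1 table of whole-number counts per gene (57133 rows, 14445 of them at 0 in all libraries). The annotation release and the strand setting are not given in the sources used here. Molecular identifiers are not mentioned in the sources used here, and floors cover counting error only.

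From these counts, genes with too few counts were dropped (edgeR's filterByExpr over the 19 groups), which left 16674 genes and 99.65% of the counts. Libraries were scaled by TMM and the quasi-likelihood test of edgeR 4.0.16 (R 4.3.3) was fitted to all libraries, with 6 naive and 4 N2B27 day 4 libraries pooled over the experiments for comparisons with naive cells and with 19 separate groups otherwise. P-values were adjusted by Benjamini-Hochberg over all genes tested. A call needed an adjusted p under 0.05 and an absolute log2 fold change above 1, except for the 5-day course, where the F-test alone decided. CPM are counts relative to the TMM-scaled library size, shown as group values or as mean ± SD, and log2 fold changes carry their standard error.

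The genes and lists were chosen with earlier results of these data known. Values are given for a list of well-known chains at day 8 and, in every comparison, for up to 4 called genes with the largest rise and 4 with the largest fall among those with a mean of at least 20 CPM and no overlap. COL2A1 and VTN stood on the list without passing the count rule. Further genes were named after their values were seen, and the values of 1 gene are not reported here. The 17 comparisons were repeated with DESeq2 1.42.0, with other scalings, filters and naive libraries, with a replicate block and without each library. On simulated counts, 200 genes among 16674 were changed. In N2B27 at day 8 against naive cells, 40% of 2-fold, 88% of 3-fold and 92% of 4-fold changes were called the right way. In E8 against N2B27 at day 8 these shares were 38%, 76% and 92%. The 2-fold shares are limited by the fold threshold, as the median absolute log2 fold change of these genes was 0.961 and 0.967. The shares were not split by the level of the genes. They therefore do not give the recovery for genes of few counts, such as COL3A1, COL12A1 and NID2, or for genes at the floor in naive cells.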

Additional observations from a re-analysis of the deposited data

Results flagged for a closer look

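Of 120 groups of 4 to 6 libraries examined over the genes, 7 had a library far from the others, and chance alone gives about 1 in 20. COL3A1 was at 0.218 CPM in 1 naive library on serum coating and at 0 in the other 5, so that its gap filled the whole range (ratio of gap to range 1). COL3A1 was likewise at 0.260 CPM in replicate 1 of N2B27 at day 4 in Ex2 and at 0 in the other 3 (ratio 1), and COL12A1 at 0.277 CPM in replicate 2 of the Ex2 naive cells and at 0 in the other 5 (ratio 1). In replicate 1 of N2B27 at day 4 in Ex2, COL11A1 was at 1.82 CPM against 1.19 to 1.25 in the others (ratio 0.898), and LAMA3 at 5.47 against 6.76 to 6.90 (ratio 0.903). COL26A1 was at 13.66 CPM in replicate 1 of the Ex2 naive cells and at 3.71 to 5.81 in the other 5 (ratio 0.789). NID2 was at 1.43 CPM in replicate 2 of N2B27 at day 4 in Ex1 and at 0.173 to 0.260 in the others (ratio 0.931). All but LAMA3 and COL26A1 rest on few counts.

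The course over days 2 to 8 differed between E8 and N2B27 by the F-test of the interaction for COL1A1 (F = 9.71), COL4A2 (5.41), COL5A1 (11.5), COL6A1 (11.6), FN1 (6.77), ITGA2 (7.16), ITGB5 (5.55), LAMA1 (24.9) and LAMB1 (13.3). Of these, COL4A2, FN1, ITGA2 and ITGB5 no longer passed in a fit to the libraries of these courses alone. The response to N2B27 at day 4 differed between Ex2 and Ex1 for COL24A1 (difference of log2 fold changes -5.40 ± 1.32, which depends on the prior count), HSPG2 (-3.48 ± 0.64) and ITGA11 (-1.22 ± 0.40). As given above, the call of COL24A1 was lost without replicate 1 of the Ex2 naive cells. That of ITGA11 was lost without any single library of the groups compared. For COL24A1 the naive cells on Geltrex were at 0.361 CPM in Ex1 and 2.09 in Ex2 and the N2B27 cultures at 2.38 and 0.249. For HSPG2 the naive means were 0.473 and 4.25 CPM and the day 4 means 4.39 and 3.14, and for ITGA11 they were 37.8 and 58.2 against 30.4 and 20.2. The day 4 libraries of the experiments overlapped for HSPG2, and the cause of these differences was not tested.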

How the results depend on the processing

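The number of called genes stayed within 1.5 times its value under the alternatives run except as follows. Without single libraries it was 2 to 5 for E8 against N2B27 at day 4, 1 to 2 for mTeSR against N2B27 at day 4, 3 to 6 for mTeSR against N2B27 at day 8, 3 to 6 for mTeSR against E8 at day 8, 0 to 1 for XAV against N2B27 and 1 to 4 for the response in Ex2 against Ex1. With only the compared libraries in the fit it was 2 for XAV against N2B27 and 5 for the course, whose F-test then rests on fewer libraries. Against naive cells at day 8 the settings other than single omissions gave 41 to 44 calls for N2B27, 42 to 45 for E8 and 38 to 45 for mTeSR.

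Single genes were followed in 266 results, not for every gene in every comparison. Among these results, signs turned only for genes that were not called. In N2B27 against naive cells these were LAMA5 (0.047 with library totals and 0.049 against naive libraries on Geltrex only, -0.10 to 0.040 over single omissions), LAMB2 (-0.14 against naive libraries of the same experiment and -0.055 with the experiment as a covariate, -0.045 to 0.27 over single omissions), ITGAE (0.019, 0.015, 0.070, 0.0079, 0.023, 0.019 and 0.018 under 7 other settings, -0.40 to 0.28 over single omissions), LAMB3 (0.028 with library totals, -0.30 to 0.19 over single omissions) and LAMC3 (-0.013 without a filter, -0.13 to 0.24 over single omissions). In E8 they were COL6A1 (0.34 against naive libraries of the same experiment and 0.25 with the experiment as a covariate, -0.21 to 0.11 over single omissions), LAMA1 (-0.37 to 0.028 over single omissions), SPARC (0.018, 4.56e-05, 0.0022, 0.013, 0.017 and 0.0060 under 6 other settings, -0.085 to 0.067 over single omissions), ITGAE (-0.10 to 0.87 over single omissions) and LAMC3 (-0.21 to 0.60 over single omissions). In mTeSR they were LAMA1 (-0.093 against naive libraries on Geltrex only and -0.023 without a filter, -0.096 to 0.095 over single omissions), LAMB2 (-0.17 against naive libraries of the same experiment and -0.083 with the experiment as a covariate, -0.32 to 0.39 over single omissions) and COL6A3 (-3.22 to 2.14 over single omissions). In the other comparisons they were COL18A1 in E8 against N2B27 (-0.45 to 0.30 over single omissions) and COL4A1 in Geltrex against serum coating (-0.44 to 0.022 over single omissions). The cause was not tested.

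Replicate numbers did not pair the libraries. Over 111 pairs of groups the deviations of libraries with the same number correlated at -0.551 to 0.466 (median 0.003), with 21 pairs over 0.1 and 16 under -0.1. With a replicate block the number of called genes was unchanged except for day 8 against day 4 in N2B27 (21 in place of 22). With the numbers crossed, an alternative chosen after seeing the data, 15 genes were called between E8 and N2B27 at day 8. With 3 counts as the floor, genes under about 1 CPM could not be resolved.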

Other observations

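ITGB2, the partner of ITGAM, took another course than ITGAM in N2B27. ITGAM fell without return, whereas ITGB2 was at 1.2005 and 1.66 CPM at day 2, below all 6 naive libraries, and at 16.3 and 10.1 CPM at day 8, above all of them. In E8 and mTeSR at day 8 ITGB2 stood at 4.50 and 5.42 CPM and at 3.26 and 3.92 CPM, and in naive cells at 3.98 to 9.41 (median 7.34).

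LAMA1 in the second experiment was at 41.0 and 41.5 CPM in naive cells, 21.6 and 23.3 in N2B27, 35.4 and 30.3 in XAV and 30.3 and 26.3 in FAX, and no library of N2B27 overlapped with those of the other 3 groups. None of these differences between the day 4 cultures was called.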
